A study of Mus musculus with 18 samples.

Results

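The genes described are 10 enzymes and carriers of the thioredoxin and glutathione peroxidase systems, named by symbol among the 49585 genes counted: the peroxiredoxins Prdx1 to Prdx6, thioredoxin (Txn1), thioredoxin reductase (Txnrd1) and the glutathione peroxidases Gpx1 and Gpx4. Their transcripts were counted by RNA-Seq in 18 libraries of CD45+ leukocytes from Kaede mice, 3 libraries in each of 6 groups. In Kaede mice every cell carries a photoconvertible protein that turns from green to red under UV light, so that red cells in a draining lymph node (LN) can be traced to the tissue that was lit. The paper reports a slight rise of red cells in the joint-draining LN right after the light, so some red LN cells may not have migrated.

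All mice were aged 6 to 10 weeks. For the inflamed groups, mice received Th1-polarized OT-II CD4+ T cells, were immunized with 100 μg OVA in adjuvant the next day and were challenged 10 days later with 100 μg heat-aggregated OVA (HAO), in the footpad for the joint or in the ear pinna for the skin. The tissue was photoconverted on day 3 and Kaede red+ cells were sorted 24 hours later from the tissue (joint nonmigrated, skin nonmigrated) or its draining LN (joint migrated, skin migrated). Each of these libraries came from a pool of 8 to 18 mice, so single animals cannot be followed. The remaining pair of groups is labelled steady state and holds leukocytes labelled as having migrated from joint or ear to the LN. The titles call the joint-draining ones PBS and the skin-draining ones Naive, and the joint ones also carry the tag KG, which the labels do not explain. Site, the PBS or naive setting and the meaning of that tag therefore cannot be told apart in the steady-state LN, and whether those mice were given cells or OVA is not stated per sample.

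Hydrogen peroxide and lipid peroxides are made in large amounts by phagocytes and in smaller amounts by every respiring cell. Peroxiredoxins reduce them through a reactive cysteine that most members then have restored by thioredoxin, which thioredoxin reductase recharges with electrons from NADPH. Glutathione peroxidases do the same work with a selenocysteine and glutathione, Gpx1 on soluble peroxides and Gpx4 on peroxidized membrane lipids, the step that holds off ferroptosis. The transcription factor NRF2 (Nfe2l2) is known to drive Prdx1, Txn1, Txnrd1 and Srxn1 through antioxidant response elements.

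Positions are given on the GRCm38 (mm10) genome with the strand in brackets. Among the peroxiredoxins, Prdx1 is at chr4:116685544-116700822 (+), Prdx2 at chr8:84969587-84974834 (+) and Prdx3 at chr19:60864051-60874556 (-). Prdx4 is at chrX:155323918-155340754 (-), Prdx5 at chr19:6906697-6910106 (-) and Prdx6 at chr1:161240112-161251219 (-). Txn1 is at chr4:57943373-57956411 (-) and Txnrd1 at chr10:82833951-82897712 (+), with Gpx1 at chr9:108338903-108340343 (+) and Gpx4 at chr10:80047166-80056439 (+). Exons of Prdx5 share 409 bases, 19.1% of its exon length, with Trmt112 on the opposite strand. Exons of Prdx2 share 173 bases with Junb and 177 with Rnaseh2a, both on the opposite strand, and Eid3 lies within Txnrd1 on the same strand with no shared exon base. Whether the libraries kept strand is not given in the sources used here, so reads in those shared bases cannot be assigned with certainty. Near-identical copies (at least 95% identity over 100 bases) held few counts: the most was Gpx4-ps2, with 1.97% of the mean count of Gpx4.

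Because several of these genes are known NRF2 targets, their promoters were searched for the core antioxidant response element TGACNNNGC on both strands. RefSeq windows (GRCm38.p6, 250 bases before to 50 after each start) were at hand for 9 of the 10 genes, Prdx6 having none here. Of the 14 windows of these 9 genes, 2 held a match (14.3%), 1 each for Prdx1 and Txnrd1, and 12.4% of all 32851 windows hold one. The 109 bases around each match are shown on the plus strand, which is the strand of both genes, with the match in capitals; it reads 5′ to 3′ as an element on the opposite strand, 133 bases before a RefSeq start of Prdx1 and 92 before one of Txnrd1. These starts, at position 116685599 of chromosome 4 and 82859206 of chromosome 10, lie 55 and 25255 bases downstream of the gene starts given above.
Prdx1, chr4:116685416-116685524 (+): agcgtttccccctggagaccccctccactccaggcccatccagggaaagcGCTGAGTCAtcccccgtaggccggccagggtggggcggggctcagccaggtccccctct
Txnrd1, chr10:82859064-82859172 (+): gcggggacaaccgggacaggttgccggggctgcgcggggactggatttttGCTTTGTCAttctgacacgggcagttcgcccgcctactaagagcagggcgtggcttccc
The AP-1 letters TGANTCA, found in 7.81% of windows, occurred among these genes in Prdx1 alone, at 131 and 237 bases before that RefSeq start, and the nearer of these overlaps the element shown. A match describes the letters and is not evidence that a factor binds there.

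Levels are given as CPM, the counts of a gene scaled to a common library total on a TMM scale shared by all 18 libraries, and fold changes come from edgeR's quasi-likelihood test on the counts with Benjamini-Hochberg adjustment over all genes tested. A gene is called, that is said to have risen or fallen, where the adjusted p was below 0.05 and the log2 fold change was above 1 or below -1. Depth ran from 19239531 to 22528895 assigned counts in the inflamed skin libraries and from 35554698 to 43814403 in the inflamed joint libraries. Site and depth therefore cannot be told apart. The paper describes the inflamed skin populations as a second data set, so site and data set cannot be told apart either. Steady-state LN libraries had 37500168 to 42938378 (joint-draining) and 28577566 to 40055171 (skin-draining). Skin migrated libraries, at 19239531 to 22378238, were thus all shallower than their steady-state group. Joint migrated libraries, at 40280509 to 43814403, overlapped theirs. Every one of the 10 genes had at least 233 counts in each library. The leukocyte markers Ptprc, Coro1a and Laptm5 summed to 3692 to 3909 CPM in the lowest group and to 4999 to 5037 CPM in the highest. The mix of cells differed strongly, however. Neutrophil markers summed to 5437 to 16450.1 CPM in joint nonmigrated and 1553 to 2746 CPM in skin nonmigrated cells, against 38.3 to 100.5 and 16.7 to 34.0 CPM in joint and skin migrated cells. Monocyte and macrophage markers summed to 16610.4 to 20545 and 3046 to 10366 CPM in the nonmigrated groups and to 141 to 328 and 288 to 523 CPM in the migrated groups. T cell markers went the other way, from at most 780.6 CPM in any nonmigrated library to at least 1570.0 CPM in every migrated library. Fibroblast markers were all 5 called lower in migrated cells at both sites, and of 7 dendritic cell markers 4 were called higher at each site, with 1 called lower in the joint and 3 in the skin. In bulk samples such as these, fewer cells of a type and less RNA per cell cannot be told apart, and the part of the cell mix in any result below was not tested.

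Summed, the 10 transcripts were most abundant in the cells retained in inflamed tissue. By mean CPM, Prdx1, Prdx5 and Gpx1 weighed most in that sum there. The summed level of the 10 was 2794 to 3057 CPM in joint nonmigrated and 3268 to 4094 CPM in skin nonmigrated libraries. It was 909 to 970.3 CPM in joint migrated and 1059.6 to 1092 CPM in skin migrated libraries, and 629 to 837 and 557 to 618 CPM in the joint-draining and skin-draining steady-state LN. No nonmigrated library overlapped any LN library, and the 6 migrated libraries lay above all 6 steady-state ones. Between migrated and nonmigrated cells, 4 of the 10 genes fell in the joint (Prdx1, Prdx5, Txn1 and Gpx1), where 34.3% of all 16777 tested genes were called, 16% higher and 18.4% lower. In the skin 5 fell (Prdx1, Prdx5, Prdx6, Txn1 and Txnrd1), where 35.4% were called, 15.7% higher and 19.7% lower. The median log2 fold change over the 10 genes was -0.74 in the joint and -1.04 in the skin, against 0.02 and 0.01 over all tested genes. Estimates were positive at both sites for Prdx3 alone, and in the skin also for Prdx2 and Prdx4.

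**Figure D1:**
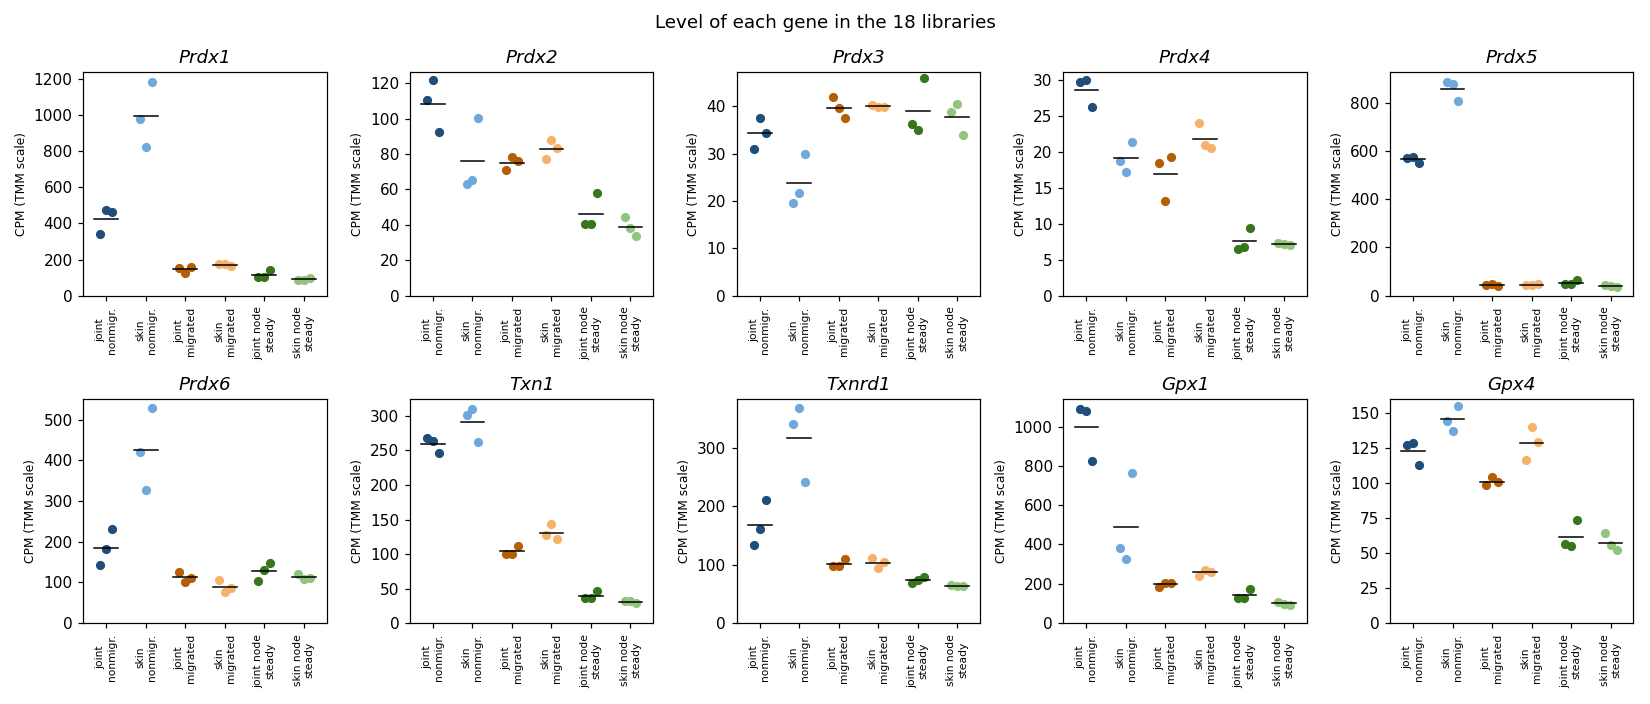
Level of each of the 10 genes in the 18 libraries (CPM on the shared TMM scale, linear axes from 0; points are libraries, lines are means of 3). Prdx5 stands at 549.5 to 884 CPM in the 6 nonmigrated libraries and at 37.4 to 64.4 CPM in the 12 LN libraries, whereas Prdx3 stays between 19.5 and 45.9 CPM throughout.

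Prdx5, a peroxiredoxin found in mitochondria, peroxisomes and the cytosol, showed the widest gap. Its level in replicates 1 to 3 was 572, 576 and 549.5 CPM in joint nonmigrated and 884, 875 and 807 CPM in skin nonmigrated cells. Joint migrated cells gave 44.6, 47.6 and 42.2 CPM and skin migrated cells 44.6, 45.8 and 49.3 CPM. The steady-state LN gave 48.2, 48.3 and 64.4 CPM (joint-draining) and 46.3, 41.2 and 37.4 CPM (skin-draining). All 6 nonmigrated libraries were high, skin above joint without overlap, and the LN groups, ranked from joint-draining steady state through skin migrated and joint migrated to skin-draining steady state, each overlapped the next. Prdx5 fell 12.6-fold in joint migrated cells, a log2 change of -3.66 (SE 0.11, adjusted p 7.96e-09). In skin migrated cells it fell 18.4-fold, a log2 change of -4.20 (SE 0.11, adjusted p 2.20e-09). The 2 effects, joint minus skin, differed by 0.55 (SE 0.13, adjusted p 0.0314), short of the fold threshold. In both comparisons it had the smallest p of all 16777 genes by edgeR. Against the steady-state LN the migrated cells were not called: the log2 difference was -0.23 (95% interval -0.49 to 0.04) in the joint and 0.19 (95% interval -0.08 to 0.46) in the skin. Read per kilobase of exon, Prdx5 made up 51.4% ± 3.67 (SD, n = 3) of the summed peroxiredoxin reads in joint nonmigrated and 46.5% ± 5.87 in skin nonmigrated cells, and 13.8% ± 1.46 and 13.5% ± 0.973 in joint and skin migrated cells.

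Trmt112, the gene whose exons overlap those of Prdx5 on the opposite strand and which encodes a methyltransferase partner, kept to a narrow range. Its mean was 37.9 ± 3.08 CPM in joint nonmigrated and 39.8 ± 5.96 CPM in skin nonmigrated cells (SD, n = 3). It was 42.1 ± 4.97 and 46.6 ± 2.33 CPM in joint and skin migrated cells and 41.3 ± 9.61 and 43.5 ± 6.46 CPM in the joint-draining and skin-draining steady-state LN. All 18 libraries lay between 34.5 and 52.4 CPM, below the 549.5 CPM of the lowest nonmigrated Prdx5 value, so that in the nonmigrated groups Prdx5 exceeded every Trmt112 level. In the LN groups Prdx5, at 37.4 to 64.4 CPM, was level with Trmt112, at 35.4 to 52.4 CPM. Ambiguous reads were not counted to genes, and how many reads in the shared bases were counted to Prdx5 is not known. Their part in its levels, falls and shares was not tested.

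**Figure D2:**
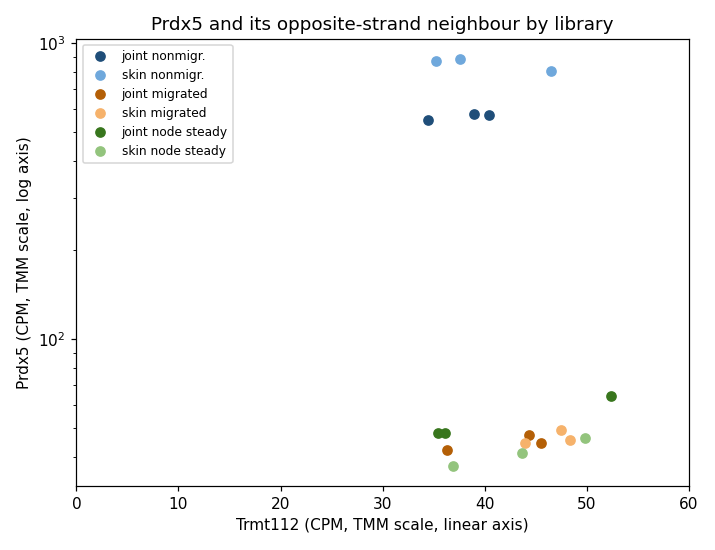
Prdx5 (log axis) against Trmt112 (linear axis) in the 18 libraries, both in CPM on the shared TMM scale, coloured by group. Trmt112 spans 34.5 to 46.5 CPM in nonmigrated and 35.4 to 52.4 CPM in LN libraries, while Prdx5 separates the 6 nonmigrated libraries from the other 12.

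Prdx1, a cytosolic peroxiredoxin that is a classic stress-inducible NRF2 target, was most abundant in the skin. Replicates 1 to 3 stood at 340.4, 476 and 465 CPM in joint nonmigrated and 979, 823 and 1184 CPM in skin nonmigrated cells. They stood at 156, 126 and 157 CPM in joint migrated and 179, 175 and 163 CPM in skin migrated cells. Steady-state LN values were 104, 104 and 141 CPM (joint-draining) and 88.7, 86.6 and 95.9 CPM (skin-draining). The groups ranked from skin nonmigrated through joint nonmigrated, skin migrated, joint migrated and joint-draining to skin-draining LN, and of these neighbours only joint migrated and joint-draining steady-state libraries overlapped. Prdx1 fell 2.91-fold in joint migrated cells, with a log2 change of -1.54 (SE 0.17, adjusted p 1.53e-05). The fall in skin migrated cells was 5.79-fold, with a log2 change of -2.53 (SE 0.17, adjusted p 5.98e-07). The step was therefore larger in the skin, by 0.99 on the log2 scale, joint minus skin (SE 0.23, adjusted p 0.0254), a difference that passed the adjusted p and lay at the edge of the fold threshold: it was called with upper-quartile factors (log2 1.03), with total counts (1.04) and with no low-count filter (1.00). It was also called without joint migrated replicate 2 (1.09), without joint nonmigrated replicate 2 (1.07) or 3 (1.06) and without skin nonmigrated replicate 2 (1.11). Compared directly, joint nonmigrated cells had a 2.33-fold lower level than skin nonmigrated cells (log2 -1.22, SE 0.17, adjusted p 0.000495). Migrated cells held more Prdx1 than steady-state LN cells, by 0.36 (adjusted p 0.0296) in the joint and 0.96 (adjusted p 2.18e-05) in the skin on the log2 scale, both short of the fold threshold.

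Prdx6, the peroxiredoxin that uses glutathione rather than thioredoxin and also has phospholipase activity, was highest in skin nonmigrated cells. In nonmigrated cells replicates 1 to 3 gave 144, 182 and 231 CPM for the joint and 421, 326 and 528 CPM for the skin. In migrated cells they gave 124, 101 and 112 CPM for the joint and 107, 75.2 and 86.4 CPM for the skin. The steady-state LN replicates gave 102, 131 and 149 and 122, 107 and 112 CPM for joint-draining and skin-draining nodes. Only skin nonmigrated libraries stood clear of every other group, and from joint nonmigrated through joint-draining LN, skin-draining LN and joint migrated to skin migrated each group overlapped the next. In the skin Prdx6 fell 4.76-fold on migration, a log2 change of -2.25 (SE 0.22, adjusted p 6.68e-06). In the joint the log2 difference was -0.72 (SE 0.21, adjusted p 0.0111), past the adjusted p and short of the fold threshold. The 2 migration effects, joint minus skin, differed by 1.53 (SE 0.29, adjusted p 0.0112) on the log2 scale, and joint nonmigrated cells held 2.29-fold less than skin nonmigrated cells (log2 -1.20, SE 0.21, adjusted p 0.00208). Keratinocyte markers summed to 26.7 to 318 CPM in the 3 skin nonmigrated libraries and to at most 5.03 CPM elsewhere. In replicates 1 to 3 of skin nonmigrated cells they summed to 163, 318 and 26.7 CPM, and monocyte and macrophage markers to 4163, 3046 and 10366 CPM. The part of either in the Prdx6 result was not tested. Against the steady-state LN neither migrated group was called, with log2 differences of -0.15 (95% interval -0.47 to 0.17) in the joint and -0.31 (95% interval -0.63 to 0.01) in the skin.

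Prdx2, a cytosolic peroxiredoxin abundant in red blood cells and lymphocytes, showed small differences on migration. Joint nonmigrated replicates gave 110.2, 122 and 92.5 CPM and skin nonmigrated replicates 62.8, 65.5 and 101 CPM. Joint migrated replicates gave 70.9, 78.0 and 76.1 CPM and skin migrated replicates 77.4, 87.8 and 83.3 CPM. Steady-state LN values were 40.8, 40.6 and 57.9 CPM (joint-draining) and 44.5, 38.2 and 34.0 CPM (skin-draining). By mean, joint nonmigrated cells ranked first, followed by skin migrated, skin nonmigrated and joint migrated cells and the steady-state LN, whose libraries were the lowest. Skin nonmigrated libraries overlapped each of the other 3 inflamed groups, and their replicate 3 stood above the other two of its group. The log2 difference between migrated and nonmigrated cells was -0.53 (adjusted p 0.0177) in the joint and 0.12 (95% interval -0.25 to 0.48) in the skin. Relative to the steady-state LN, Prdx2 rose 2.18-fold in skin migrated cells (log2 1.12, SE 0.14, adjusted p 1.27e-05), a call lost with upper-quartile factors (log2 0.98), with total counts (0.95) and without steady-state skin replicate 3 (0.99). In the joint the difference was 0.72 (SE 0.14, adjusted p 0.000756), short of the fold threshold. In skin nonmigrated replicates 1 to 3 erythroid markers summed to 42.3, 4.44 and 8.78 CPM and monocyte and macrophage markers to 4163, 3046 and 10366 CPM, and their part in the Prdx2 spread was not tested. Of the genes overlapping Prdx2, Junb lay at 1068 to 1631 CPM in skin migrated and 1088 to 1512 CPM in skin-draining steady-state libraries, and Rnaseh2a at 20.0 to 23.97 and 20.4 to 23.3 CPM.

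Prdx3, the mitochondrial peroxiredoxin, kept to a narrow range. Nonmigrated replicates gave 31.0, 37.5 and 34.4 CPM in the joint and 19.5, 21.7 and 29.9 CPM in the skin. Migrated replicates gave 41.9, 39.6 and 37.5 CPM in the joint and 40.3, 39.9 and 39.9 CPM in the skin. Steady-state LN replicates gave 36.3, 34.9 and 45.9 CPM (joint-draining) and 38.8, 40.6 and 33.9 CPM (skin-draining). The skin nonmigrated libraries were the lowest, and the other 5 groups overlapped one after another. In the skin the log2 difference on migration was 0.75 (SE 0.15, adjusted p 0.00105), short of the fold threshold with TMM and past it with total counts (log2 1.01). In the joint it was 0.21 (95% interval -0.10 to 0.53). Between migrated and steady-state LN cells the estimates were 0.05 (95% interval -0.19 to 0.30) for the joint and 0.12 (95% interval -0.13 to 0.36) for the skin, and both changed sign with upper-quartile factors.

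Prdx4, the peroxiredoxin of the endoplasmic reticulum that helps to fold secreted proteins, was the least abundant of the 10 per kilobase in every group. Its values were 29.7, 30.0 and 26.3 CPM in joint nonmigrated and 18.8, 17.3 and 21.4 CPM in skin nonmigrated cells. They were 18.5, 13.1 and 19.3 CPM in joint migrated and 24.1, 20.97 and 20.6 CPM in skin migrated cells. In LN at steady state they were 6.49, 6.82 and 9.38 CPM (joint-draining) and 7.31, 7.18 and 7.12 CPM (skin-draining). Joint nonmigrated libraries lay above and the 6 steady-state libraries below all the others, and skin migrated, skin nonmigrated and joint migrated libraries overlapped in that order. On migration the log2 difference was -0.75 (adjusted p 0.00153) in the joint, short of the fold threshold, and 0.19 (95% interval -0.16 to 0.53) in the skin. These 2 effects, joint minus skin, differed by -0.94 (SE 0.22, adjusted p 0.0261), and that difference also passed the fold threshold without joint migrated replicate 3 (-1.0004) or skin nonmigrated replicate 3 (-1.03). Relative to the steady-state LN, Prdx4 rose 2.29-fold in joint migrated cells (log2 1.20, SE 0.17, adjusted p 6.39e-05) and 3.10-fold in skin migrated cells (log2 1.63, SE 0.17, adjusted p 2.66e-06). Plasma cell markers, which include genes of the same secretory pathway, summed to 528 to 869 and 643 to 913 CPM in the migrated groups and to 404 to 436 and 248 to 319 CPM in the joint-draining and skin-draining steady-state LN. Of these 6 markers, 3 were called higher in the joint comparison and 4 in the skin comparison, and their part in the Prdx4 result was not tested.

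**Figure D3:**
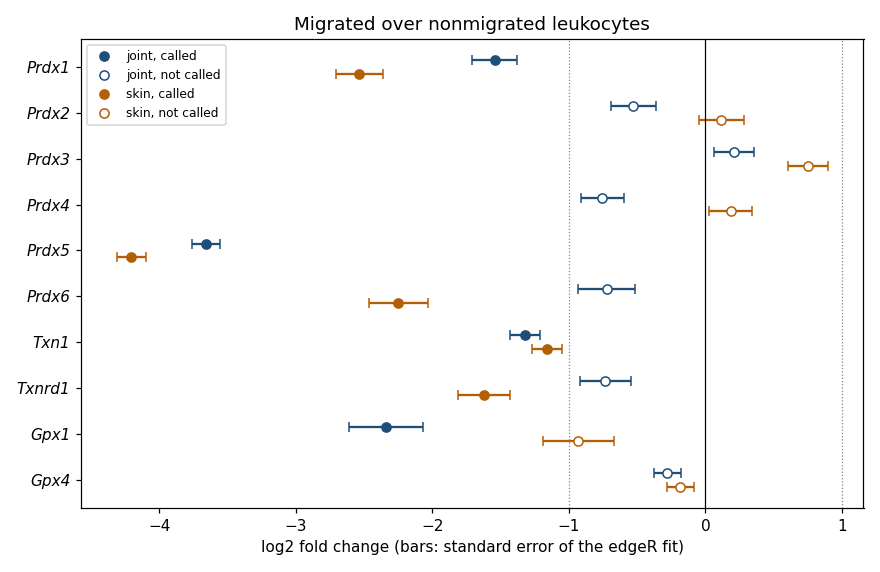
Log2 fold change of migrated over nonmigrated cells for the 10 genes in joint and skin (bars, standard error of the edgeR fit; filled points were called; dotted lines mark log2 changes of -1 and 1). Prdx5 lies farthest to the left at both sites, at -3.66 in the joint and -4.20 in the skin, and Prdx3 lies right of 0 at both.

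The makeup of the peroxiredoxin pool, read as each gene's share of the 6 peroxiredoxins per kilobase of exon, accordingly differed between retained and LN cells. Prdx5 and Prdx1 together took up most of it in nonmigrated cells, Prdx1 making up 27.1% ± 3.29 in the joint and 37.6% ± 3.65 in the skin (SD, n = 3). In the LN groups Prdx1 was the largest share, at 31.6% ± 2.33 and 35.0% ± 1.07 in joint and skin migrated cells and 28.3% ± 0.710 and 26.003% ± 2.39 in the joint-draining and skin-draining steady-state LN. The Prdx3 share was 4.49% ± 0.159 and 1.85% ± 0.314 in the nonmigrated groups against 17.7% ± 1.13 and 16.8% ± 0.280 in the migrated groups, while its CPM level kept to the range given above. These shares describe proportions and were not tested.

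**Figure D4:**
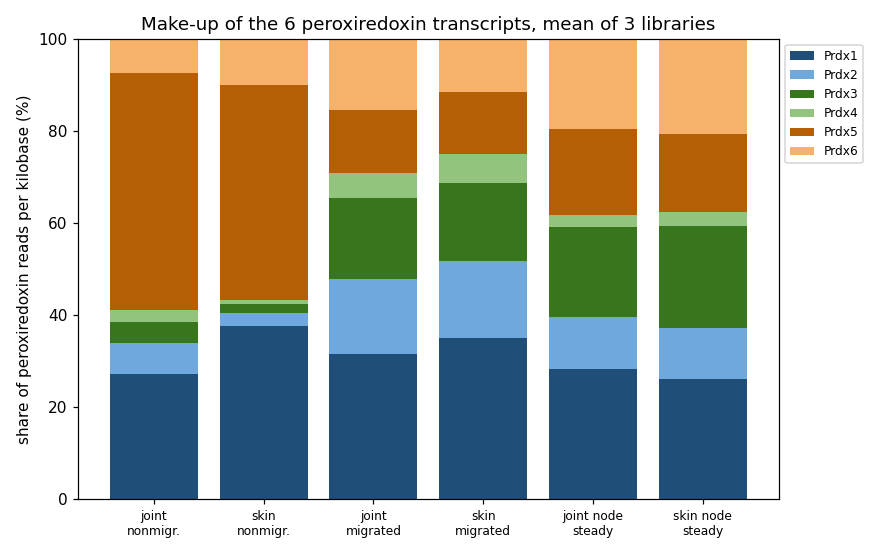
Share of each gene in the summed reads per kilobase of the 6 peroxiredoxins (stacked bars from 0 to 100%, mean of 3 libraries per group). Prdx5 takes 51.4% in joint nonmigrated and 46.5% in skin nonmigrated cells and 13.5% to 18.6% in the 4 LN groups.

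Txn1, the small protein that carries electrons to the peroxiredoxins, was graded over all 3 compartments. Nonmigrated replicates gave 268, 264 and 246 CPM in the joint and 301, 310.4 and 263 CPM in the skin. Migrated replicates gave 99.9, 99.7 and 112 CPM in the joint and 127, 144 and 122 CPM in the skin. Steady-state LN replicates gave 35.8, 36.2 and 46.3 CPM (joint-draining) and 31.9, 31.9 and 29.5 CPM (skin-draining). Nonmigrated joint and skin libraries overlapped each other, and the rest ranked without overlap as skin migrated, joint migrated, joint-draining and skin-draining LN. On migration Txn1 fell 2.50-fold in the joint (log2 -1.32, SE 0.11, adjusted p 2.29e-06). In the skin it fell 2.23-fold (log2 -1.16, SE 0.11, adjusted p 5.24e-06), a change that missed the fold threshold with upper-quartile factors (log2 -0.99) and with total counts (-0.89). The 2 effects, joint minus skin, differed by -0.16 (95% interval -0.49 to 0.17). Relative to the steady-state LN, Txn1 rose 2.69-fold in joint migrated cells (log2 1.43, SE 0.11, adjusted p 3.12e-07) and 4.30-fold in skin migrated cells (log2 2.10, SE 0.12, adjusted p 6.89e-09). Among the 10 genes these were the largest rises over the steady-state LN, and the rise in the joint differed from that in the skin by -0.68 on the log2 scale (SE 0.16, adjusted p 0.0168), short of the fold threshold.

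Txnrd1, the selenoprotein that reduces thioredoxin with NADPH, ranked the 6 groups in the same order as Prdx1 did. Replicates 1 to 3 gave 133, 161 and 210.3 CPM in joint nonmigrated and 339.9, 368 and 241 CPM in skin nonmigrated cells. They gave 97.1, 97.1 and 109 CPM in joint migrated and 112, 93.4 and 104 CPM in skin migrated cells. The steady-state LN replicates gave 68.0, 74.3 and 78.8 CPM (joint-draining) and 65.7, 62.6 and 63.0 CPM (skin-draining). Skin nonmigrated cells were highest, joint nonmigrated next, the migrated groups overlapped each other, and joint-draining then skin-draining LN cells were lowest. In the skin Txnrd1 fell 3.08-fold on migration (log2 -1.62, SE 0.19, adjusted p 2.65e-05). In the joint the log2 difference was -0.73 (SE 0.18, adjusted p 0.00535), short of the fold threshold, and the difference between the 2 effects did not pass the adjusted p (log2 0.89, 95% interval 0.32 to 1.46, adjusted p 0.0590), though it was called without joint nonmigrated replicate 3 (log2 1.08) or without skin nonmigrated replicate 3 (1.05). Compared directly, joint nonmigrated cells differed by -0.91 from skin nonmigrated cells on the log2 scale (adjusted p 0.00448), also short of the fold threshold and past it without either of those libraries (log2 -1.10 and -1.07). Migrated cells exceeded the steady-state LN by 0.49 (adjusted p 0.000627) in the joint and 0.73 (adjusted p 1.48e-05) in the skin on the log2 scale. Eid3, inside Txnrd1, was at 0.311 to 5.74 CPM in all libraries.

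Gpx1, the abundant cytosolic and mitochondrial glutathione peroxidase, was the gene with the highest level per kilobase in 5 of the 6 groups, the exception being skin nonmigrated, where Prdx5 ranked above it with overlapping libraries. Joint nonmigrated replicates gave 1090.3, 1080.4 and 827 CPM and skin nonmigrated replicates 381, 325 and 766 CPM. Joint migrated replicates gave 183, 203 and 205 CPM and skin migrated replicates 241, 270.0 and 262 CPM. Steady-state LN values were 129.8, 127 and 171 CPM (joint-draining) and 109.5, 97.9 and 92.2 CPM (skin-draining). The ranking ran from joint nonmigrated through skin nonmigrated, skin migrated, joint migrated and joint-draining to skin-draining LN with no overlap between neighbours, and skin nonmigrated replicate 3 stood far above the other libraries of its group. Monocyte and macrophage markers in those 3 skin libraries summed to 4163, 3046 and 10366 CPM, so that replicate 3 was also the highest in these markers, and their part in the Gpx1 spread was not tested. Gpx1 fell 5.06-fold in joint migrated cells (log2 -2.34, SE 0.27, adjusted p 2.45e-05). In the skin the log2 difference was -0.93 (SE 0.26, adjusted p 0.00926), short of the fold threshold and past it without skin nonmigrated replicate 1 (log2 -1.08) or 2 (-1.15). Leaving out 1 library at a time gave skin differences from -1.15 to -0.45, so the size of this fall depended on single libraries. The migration effects, joint minus skin, differed by -1.41 (SE 0.37, adjusted p 0.0382) on the log2 scale, a call kept in only 2 of 12 fits that left out a library (those without replicate 3 of either nonmigrated group), the other 10 giving -1.46 to -1.18. Joint nonmigrated cells held 2.04-fold more Gpx1 than skin nonmigrated cells (log2 1.03, SE 0.26, adjusted p 0.0137), a call lost in a fit of those groups alone (adjusted p 0.0686) and without skin nonmigrated replicate 1 or 2 (log2 0.87 and 0.80) or joint nonmigrated replicate 1 or 2 (0.96 and 0.97). Relative to the steady-state LN, Gpx1 rose 2.63-fold in skin migrated cells (log2 1.40, SE 0.12, adjusted p 3.94e-07), and in the joint the difference was 0.50 (SE 0.12, adjusted p 0.00357), short of the fold threshold.

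Gpx4, the glutathione peroxidase that protects membrane lipids, showed smaller differences on migration than Gpx1. Nonmigrated replicates gave 127, 128 and 113 CPM in the joint and 144, 137 and 155 CPM in the skin. Migrated replicates gave 98.4, 104 and 101 CPM in the joint and 116, 139.9 and 129 CPM in the skin. Steady-state LN replicates gave 56.5, 54.7 and 73.8 CPM (joint-draining) and 64.0, 55.9 and 52.4 CPM (skin-draining). Skin nonmigrated, skin migrated and joint nonmigrated libraries overlapped in that order at the top, joint migrated ones came next, and the steady-state libraries were lowest without overlap with any inflamed group. On migration the log2 difference was -0.28 (SE 0.10, adjusted p 0.0284) in the joint and -0.18 (95% interval -0.39 to 0.03) in the skin, and both estimates turned positive with total counts (0.04 and 0.08). Relative to the steady-state LN, Gpx4 rose 2.29-fold in skin migrated cells (log2 1.19, SE 0.12, adjusted p 2.08e-06), and in the joint the difference was 0.74 (SE 0.12, adjusted p 0.000215), short of the fold threshold.

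Between inflamed migrated and steady-state LN cells, then, 2 of the 10 genes rose in the joint (Prdx4 and Txn1), where 24.2% of 17107 tested genes were called, 16.9% higher and 7.31% lower. In the skin 5 rose (Prdx2, Prdx4, Txn1, Gpx1 and Gpx4), where 36.5% were called, 21.5% higher and 15% lower. Skin migrated and skin-draining steady-state libraries did not overlap in depth. Nor did they in reads outside genes, at 0.114% to 0.135% against 0.227% to 0.441%. Depth, data set and inflammation therefore cannot be told apart in the skin. In the joint, the unclear sort of the steady-state libraries (tag KG) cannot be told apart from inflammation. The median log2 fold change of the 10 genes was 0.49 in the joint and 1.04 in the skin, against -0.02 and 0.00 over all tested genes. Cycling markers moved in the same direction, all 6 called higher at both sites: they summed to 634 to 866 and 472 to 835 CPM in joint and skin migrated cells and to 76.1 to 122 and 49.1 to 65.9 CPM in the joint-draining and skin-draining steady-state LN. B cell markers went the other way, all 5 called lower at both sites, from 3749 to 3773 and 2411 to 3027 CPM in the joint-draining and skin-draining steady-state LN to 591 to 797 and 86.4 to 166 CPM in joint and skin migrated cells. Of 7 dendritic cell markers 6 were called higher at both sites, and of 7 monocyte and macrophage markers 7 were called higher in the skin, against 1 higher and 2 lower in the joint. Their part in the rises was not tested.

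**Figure D5:**
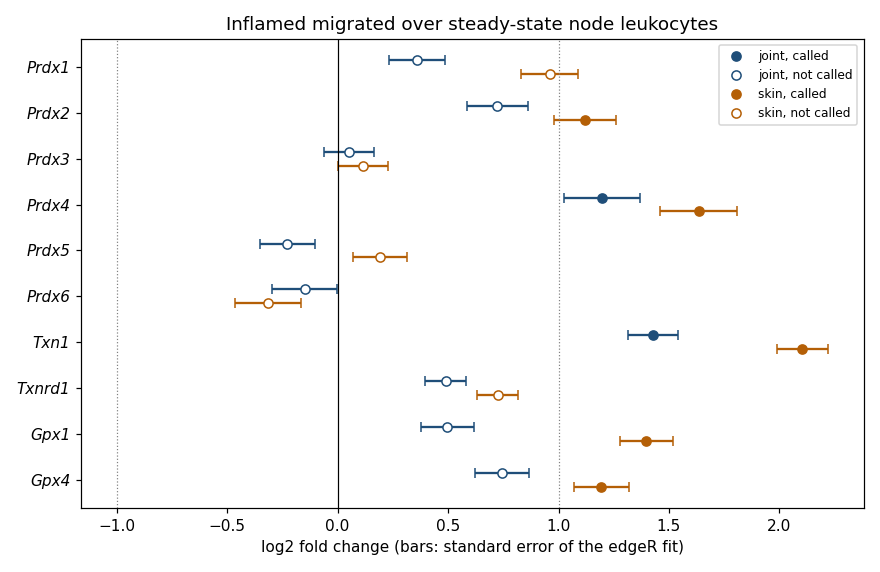
Log2 fold change of inflamed migrated cells over steady-state LN cells for the 10 genes, joint-draining and skin-draining (bars, standard error of the edgeR fit; filled points were called; dotted lines mark log2 changes of -1 and 1). Txn1 lies farthest to the right at both sites, at 1.43 and 2.10, and the points of Prdx3, Prdx5 and Prdx6 lie between -0.31 and 0.19.

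More of the 10 genes, as of all tested genes, were called between sites among retained cells than among LN cells. Between joint and skin nonmigrated cells 3 of the 10 genes were called, Gpx1 higher and Prdx1 and Prdx6 lower in the joint, where 14.3% of genes were called (5.45% higher and 8.86% lower), and the migration effect itself was called different between sites for Prdx6 and Gpx1, where 6.13% were called (3.96% with a positive and 2.17% with a negative difference). Without 1 library at a time, 1 to 4 of the 10 were called for this difference: 4 without replicate 3 of either nonmigrated group, and 1 without joint nonmigrated replicate 1, skin nonmigrated replicate 1, joint migrated replicate 1 or any of the skin migrated replicates. Among migrated cells none of the 10 was called by edgeR between sites and 1.14% of genes were (0.56% higher and 0.578% lower in the joint), with 3 of the 10 (Prdx4, Txn1 and Gpx4) at an unadjusted p under 0.05 and 0 called by DESeq2. The joint-minus-skin log2 differences in migrated cells lay between -0.38 for Gpx1 and 0.33 for Prdx6. In the steady-state LN none was called by edgeR where 3.89% of genes were (3.23% higher and 0.655% lower in joint-draining cells), 5 were at an unadjusted p under 0.05 and 0 were called by DESeq2. There Gpx1 was higher in joint-draining cells by 0.51 (SE 0.12, adjusted p 0.0192) on the log2 scale, short of the fold threshold. None of the 10 was called by edgeR for a difference between sites in the contrast of migrated with steady-state LN cells, where 6.11% of genes were (2.33% with a positive and 3.78% with a negative difference), with 5 at an unadjusted p under 0.05 and 0 called by DESeq2. Of these, Gpx1 (log2 -0.90, SE 0.17, adjusted p 0.00526) and Txn1 (described above) passed the adjusted p. Neutrophil markers separated the steady-state groups, at 429 to 846 CPM in joint-draining and 12.9 to 20.6 CPM in skin-draining libraries, and so did monocyte and macrophage markers at 388 to 556 and 51.5 to 78.8 CPM; their part in the differences of Gpx1 and Txn1 was not tested.

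Around these 10 genes, 59 of 60 listed genes of the same pathways were tested. On migration 24 fell (40.7%, against 18.4% of all tested genes) and 2 rose (3.39%, against 16%) in the joint. In the skin 31 fell (52.5%, against 19.7%) and 3 rose (5.08%, against 15.7%). The counts of single lists below are to be read against the same shares of all genes. Of the 13 partners of thioredoxin and peroxiredoxins, 4 fell and 1 rose in the joint and 5 fell and 1 rose in the skin. Msrb1, a methionine sulfoxide reductase that thioredoxin recharges, stood at 206 ± 1.496 and 216 ± 60.2 CPM in joint and skin nonmigrated cells and at 34.0 ± 3.60 and 38.6 ± 4.30 CPM in migrated cells (SD, n = 3). It fell by log2 changes of -2.60 (SE 0.18, adjusted p 8.20e-07) in the joint and -2.49 (SE 0.18, adjusted p 9.65e-07) in the skin. Srxn1, sulfiredoxin, which repairs overoxidized peroxiredoxins, was at 69.6 ± 10.3 and 112 ± 11.8 CPM in joint and skin nonmigrated and 18.6 ± 8.12 and 21.3 ± 3.25 CPM in migrated cells, and fell at both sites, with log2 changes of -1.90 (SE 0.28, adjusted p 0.000146) in the joint and -2.40 (SE 0.29, adjusted p 3.19e-05) in the skin. Sesn3, a sestrin, rose at both sites, with log2 changes of 2.67 (SE 0.23, adjusted p 3.08e-06) in the joint and 1.92 (SE 0.22, adjusted p 2.66e-05) in the skin.

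In the glutathione and glutaredoxin list 5 of 14 tested genes fell in the joint and 8 in the skin. Mgst1, a membrane-bound glutathione transferase, went from 82.4 ± 11.1 and 63.0 ± 10.1 CPM in joint and skin nonmigrated cells to 0.753 ± 0.359 and 0.681 ± 0.507 CPM in migrated cells. Its log2 change was -6.76 (SE 0.40, adjusted p 2.91e-07) in the joint and -6.52 (SE 0.42, adjusted p 3.77e-07) in the skin. Slc7a11, the cystine importer that feeds glutathione synthesis, stood at 624 ± 203 CPM in skin nonmigrated cells against 81.9 ± 51.2 CPM in joint nonmigrated cells, a log2 difference of -2.93 (SE 0.50, adjusted p 0.00191). Gpx3 went the other way, at 22.5 ± 9.08 CPM in joint and 3.89 ± 2.23 CPM in skin nonmigrated cells (log2 2.53, SE 0.39, adjusted p 0.00107). In joint migrated cells Gpx3 was at 1.07 ± 0.0861 CPM, a fall on migration with a log2 change of -4.39 (SE 0.43, adjusted p 7.14e-06). In the list of suppliers of NADPH 6 of 7 genes fell in the joint and 3 of 7 in the skin, led at both sites by Pgd, an enzyme of the pentose phosphate pathway, with log2 changes of -2.73 (SE 0.13, adjusted p 1.04e-07) and -2.27 (SE 0.13, adjusted p 1.43e-07). The NRF2 list had 4 of 9 lower in the joint and 7 of 9 in the skin. Nfe2l2 itself was at 305 ± 84.8 CPM in joint nonmigrated and 55.3 ± 12.4 CPM in joint migrated cells (log2 -2.46, SE 0.21, adjusted p 2.67e-06) and fell in the skin too (log2 -2.10, SE 0.20, adjusted p 7.20e-06). Hmox1, heme oxygenase, went from 348 ± 38.0 to 10.0 ± 4.57 CPM in the joint and from 1250.5 ± 405 to 7.12 ± 1.94 CPM in the skin, log2 changes of -5.11 (SE 0.40, adjusted p 1.82e-06) and -7.46 (SE 0.45, adjusted p 2.47e-07).

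Of the superoxide dismutases and catalase, mitochondrial Sod2 fell at both sites, with log2 changes of -2.04 (SE 0.10, adjusted p 1.06e-07) in the joint and -2.72 (SE 0.10, adjusted p 1.30e-08) in the skin, and catalase (Cat) rose in the skin (log2 1.21, SE 0.21, adjusted p 0.000468), with a joint difference of 0.79 (SE 0.21, adjusted p 0.00688) that was short of the fold threshold. The Gpx4 and ferroptosis list had 3 of 6 genes lower in the joint and 6 of 6 in the skin. Fth1, the ferritin heavy chain that stores iron and has pseudogenes that could share its reads, was at 5156 ± 271 CPM in joint nonmigrated, 24474 ± 4659 CPM in skin nonmigrated and 771 ± 68.5 and 812 ± 72.9 CPM in joint and skin migrated cells, with log2 changes of -2.74 (SE 0.18, adjusted p 5.23e-07) and -4.92 (SE 0.20, adjusted p 2.25e-08). Aifm2, which restrains ferroptosis independently of Gpx4, fell by a log2 change of -3.39 (SE 0.20, adjusted p 2.93e-07) in the joint and -3.31 (SE 0.21, adjusted p 3.13e-07) in the skin. Of the 6 genes for selenoprotein synthesis, on which Gpx1, Gpx4 and Txnrd1 depend, 1 rose and 1 fell at each site: Sepsecs had log2 changes of 1.38 (SE 0.26, adjusted p 0.000762) and 1.43 (SE 0.26, adjusted p 0.000642), and Sephs2 had -1.02 (SE 0.15, adjusted p 0.000163) and -1.04 (SE 0.15, adjusted p 0.000151) in joint and skin.

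Relative to the steady-state LN, 12 of the 59 pathway genes rose and 3 fell in joint migrated cells, shares of 20.3% and 5.08% that lay near the 16.9% and 7.31% of all tested genes. In skin migrated cells 22 rose and 4 fell, shares of 37.3% and 6.78% against 21.5% and 15% of all tested genes. Srxn1 was among them, at 1.14 ± 0.326 and 0.350 ± 0.102 CPM in the joint-draining and skin-draining steady-state LN, with log2 changes of 4.07 (SE 0.33, adjusted p 4.46e-07) and 5.98 (SE 0.39, adjusted p 2.87e-08). Slc7a11 was at 2.08 ± 0.510 and 0.255 ± 0.104 CPM there, with log2 changes of 4.13 (SE 0.38, adjusted p 1.29e-06) and 7.80 (SE 0.50, adjusted p 2.37e-08). Glrx, a glutaredoxin, rose in the skin (log2 2.64, SE 0.13, adjusted p 3.18e-09) and in the joint (log2 1.87, SE 0.13, adjusted p 9.42e-08). Mgst1 fell in the joint (log2 -2.57, SE 0.42, adjusted p 0.000199). Its level went from 4.58 ± 0.818 CPM in the joint-draining steady-state LN to 0.753 ± 0.359 CPM in joint migrated cells. In the skin it stood at 0.459 ± 0.149 and 0.681 ± 0.507 CPM. Cytosolic Sod1 rose in the skin (log2 1.35, SE 0.13, adjusted p 7.98e-07), with a joint difference of 0.82 (SE 0.12, adjusted p 0.000113) that was short of the fold threshold.

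Across the 18 libraries, the pattern most like that of each gene was looked up among 17992 genes by Pearson's r of log2 CPM. These libraries fall into 6 groups and share their cell mix, so the values describe likeness alone. Prdx5 was most like Sdcbp (r 0.996) and Lrrc8d (r 0.993), Prdx1 most like Esd (r 0.988) and Tnfaip8l3 (r 0.987) and Prdx6 most like Carmil1 (r 0.961) and Notch4 (r 0.952). Prdx2 was most like Mtch1 (r 0.980) and Dcxr (r 0.974), Prdx3 most like Scfd2 (r 0.958) and Eci1 (r 0.954) and Prdx4 most like Ap1s1 (r 0.976) and Ube2e3 (r 0.968). For the thioredoxin pair, Txn1 was most like Cd44 (r 0.993) and Tuba1c (r 0.992) and Txnrd1 most like Ccl4 (r 0.990) and Hbegf (r 0.986). Gpx1 was most like Blvra (r 0.989) and Ticam2 (r 0.989), and Gpx4 most like Dctn2 (r 0.987) and Sh3bgrl3 (r 0.986). Between the 10 genes themselves r was highest for Prdx1 with Txnrd1 (0.963), followed by Txn1 with Gpx4 (0.946), Prdx2 with Prdx4 (0.942) and Prdx1 with Prdx5 (0.940). Prdx3 had a negative r with each of the other 9, from -0.79 with Txnrd1 to -0.05 with Prdx2.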

How the data were processed

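RNA was sequenced from 18 libraries of sorted CD45+ cells (TruSeq, Illumina HiSeq, paired reads). The protocol in the labels describes a sort of Kaede red+ cells, and the tag KG on the joint-draining steady-state libraries leaves their sort unclear. Per the paper's methods the authors checked reads with FastQC, trimmed them with Trim Galore, aligned them to mm10 with TopHat2 and counted reads per gene with HTSeq at default settings; versions of these tools and whether libraries kept strand were not given in the sources used here. The deposited table holds raw read counts per gene, and no normalized values were used. The table's 5 summary lines were removed before any total; reads aligned to more than 1 place (9.24% to 12.7% of a library) and ambiguous reads (1.84% to 2.37%) were not counted to genes. Reads outside genes were 0.0920% to 0.135% in inflamed skin libraries and 0.293% to 0.562% in inflamed joint libraries.

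Groups came from the sample labels. The labels do not tie libraries to single animals, so p-values measure the spread between pools or libraries. The 10 genes, the pathway and marker lists and the tests were chosen with earlier results of these data known. Each named pathway gene was among the 2 with the largest absolute change of those called in its list in at least 1 comparison. Its values in other comparisons are given in places, called or not, and not every such gene is named. The deposited counts were tested with edgeR 4.0.16 (R 4.3.3) by the quasi-likelihood F test with TMM factors after filterByExpr at a minimum count of 10. One fit held the 12 inflamed libraries (16777 genes) and another the 12 LN libraries (17107 genes), each adjusted by Benjamini-Hochberg over all its genes. Standard errors were derived from each estimate and its F statistic, as the size of the estimate over the root of F, and intervals are 95%. Reads per kilobase used the union of GENCODE M21 exons. The floor of 3 counts is 0.0616 to 0.180 CPM, and it covers counting error only. Scripts were tested on simulated counts. Alternatives were DESeq2 1.42.0, other size factors, other filters, a stricter threshold, other sample sets, the replicate number as a block and leaving out each library.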

Additional observations from a re-analysis of the deposited data

Results flagged for a closer look

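The effect of migration differed between joint and skin, by the test of the difference itself (edgeR, joint minus skin on the log2 scale), for 5 of the 10 genes at an adjusted p under 0.05, where 7.98% of all tested genes were. Prdx6 differed by 1.53 (adjusted p 0.0112) and Gpx1 by -1.41 (adjusted p 0.0382), the latter called in only 2 of 12 fits that left out a library. Prdx1 differed by 0.99 (adjusted p 0.0254), Prdx4 by -0.94 (adjusted p 0.0261) and Prdx5 by 0.55 (adjusted p 0.0314), each short of the fold threshold in the fit of all 12 inflamed libraries. Prdx1, Prdx5 and Prdx6 thus had the larger decrease in the skin, and Gpx1 the larger decrease in the joint.

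The difference between inflamed migrated and steady-state LN cells also differed between joint and skin for Txn1, by -0.68 (adjusted p 0.0168), and for Gpx1, by -0.90 (adjusted p 0.00526), where 10.1% of all tested genes passed the adjusted p. In both cases the skin had the larger increase. The steady-state groups also differ in their titles (PBS for the joint, Naive for the skin), which cannot be told apart from site. In the skin alone, migrated libraries were all shallower than steady-state ones and all had a lower share of reads outside genes. Depth and data set cannot be told apart from these differences either. Neutrophil markers were called in the same contrast, 6 of 6 with a lower joint effect, and so were monocyte and macrophage markers, 7 of 7; their part in these values was not tested.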

How the results depend on the processing

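The replicate numbers were not treated as pairs in the main fits. Same-numbered joint nonmigrated and migrated libraries had correlations of their deviations of 0.0117 to 0.195, and skin ones 0.0513 to 0.125. Joint migrated and steady-state ones had -0.150 to -0.105 and skin ones -0.0478 to -0.0139. Of 12 pairs, 5 correlated best with their own number, and all 5 were nonmigrated with migrated libraries of the same site. There only joint nonmigrated replicate 1 did not, while no migrated and steady-state pair did. The labels do not say whether same-numbered libraries share pools. With the replicate block the numbers of genes called in the 9 comparisons were 4, 5, 2, 3, 0, 2, 5, 0 and 0, the same as without it. At an adjusted p under 0.001, 0 of the 10 genes were called for a difference in migration effect between sites and 1 between joint and skin nonmigrated cells. Leaving out a library gave 1 to 4 called for the former, which drew on the libraries named in the report. Total counts alone moved the median of all genes by 0.31 (joint) and 0.27 (skin) between migrated and nonmigrated cells.

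Of 1960 single-gene values under the alternatives, 1883 kept their direction and their side of the threshold, 24 lost the call, 16 gained one and 37 changed sign. Under the alternative, these 37 were all within an absolute log2 of 0.12 and at adjusted p of at least 0.475. In the main fits their estimates reached an absolute log2 of 0.28, for Gpx4 on joint migration (-0.28, adjusted p 0.0284 by edgeR). Between joint and skin migrated cells, Prdx3 gave 0.0147 with upper-quartile factors, 0.0655 with total counts and 0.0528 with no low-count filter. Txnrd1 gave 0.000589, 0.0511 and 0.0382 in the same order, and Prdx5 gave 0.0233 with total counts and 0.0102 with no filter. For Prdx3, upper-quartile factors gave -0.0163 and -0.0251 against the steady-state LN in joint and skin and 0.00876 for the difference between them. Total counts gave -0.0593 in skin, 0.0838 for the difference and -0.0184 between the steady-state groups. Gpx4 on migration gave 0.0357 and 0.0845 with total counts. The cause was not tested.

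Leaving out a library turned the sign of these values: Prdx2 on skin migration (-0.00355 to 0.369), Prdx3 (-0.0339 to 0.0635), Prdx5 (-0.0955 to 0.0250) and Txnrd1 (-0.0674 to 0.04999) between joint and skin migrated cells, and Prdx3 against the steady-state LN in joint (-0.0223 to 0.200) and skin (-0.00416 to 0.113) and in the difference between them (-0.105 to 0.124). Between steady-state groups Prdx3 ran from -0.0945 to 0.105, Prdx4 from -0.124 to 0.154 and Gpx4 from -0.0566 to 0.173. Fits of only the groups compared cannot give a difference between 2 effects and were not made for it. Depth gave each of the 10 genes at least 233 counts in every library.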
